A study of Drosophila melanogaster with 32 samples.

Results

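The genes described here are 8 male genes of the Drosophila melanogaster Y chromosome other than its dynein heavy chains, namely ORY, CCY, PRY, WDY, ARY, Ppr-Y, Pp1-Y1 and Pp1-Y2. They were chosen by name and chromosome, but with earlier results of these data known. They were found by their FlyBase symbols or synonyms as 8 of the 17559 gene identifiers in the RNA-seq count files. RefSeq places 123 genes on the Y chromosome, of which 81 were in the files and 28 had enough counts to be tested. All 8 genes were tested. They passed the filter on low counts mainly through the 48h and 72h libraries, but ORY and WDY did not pass with the 48h and bam libraries alone. Some difference from the groups with few counts, for ORY and WDY also from 48h, thus follows from the filter. The counts of called genes below are descriptions.

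The Y chromosome of this fly is made largely of repeats and carries few protein-coding genes. Males without it are viable and sterile, because the known Y genes act in the male germ line. Several of them have introns of enormous size, filled with satellite repeats, and are transcribed in primary spermatocytes as long structures called Y loops. Their transcripts are made during spermatocyte growth and the proteins act later, in the sperm tail and in mature sperm. The genes in question differ in kind. ARY is named for an aldehyde reductase and the Pp1-Y genes for protein phosphatase 1, an enzyme that removes phosphate from serine and threonine. PRY is named for polycystins, the ion channel family of the sperm tail protein Pkd2. ORY is named for occludin, CCY for its coiled coils and WDY for its WD40 repeats, and WDY is needed for sperm to be stored in the female.

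RNA-seq was made on 2 libraries per group, each from 100 pairs of testes pooled from males under 2 days old. The aly group was aly -/-, had no heat shock and grew for 10 days at 25 C, and its label names mature spermatocytes as the enriched stage. The aly gene encodes a subunit of tMAC, the testis meiotic arrest complex, which switches on spermatocyte genes. The bam group was bam -/-, had no heat shock either and grew for 12 days at 22 C, and its label names spermatogonia, the dividing germ cells. The 48h and 72h groups were also bam -/- but carried Bam under a heat shock promoter, which is not restricted to germ cells. They grew for 9 days at 22 C, received 30 min at 37 C and were taken 48 h (young spermatocytes, by the label) or 72 h (mature spermatocytes) later, after being kept at 25 C. Peak lists of open chromatin by ATAC-seq, from males under 1 day old, came as 1 list for each of these 4 conditions, for topi -/- testes (topi is another tMAC gene, grown as aly) and for a heat shock control, bam -/- without inducible Bam. Inducible Bam, the heat shock, the warmer days after it and time of growth differ together between the 48h or 72h group and bam. Between aly and bam, genotype, growth temperature and time of growth differ together, and between aly and the 48h or 72h group the heat shock does too, so these cannot be told apart. The 72h and 48h groups differ in the time after the shock, so stage and time cannot be told apart there. The labels do not say whether libraries of a group came from separate cultures, so p-values measure the spread between the pooled libraries, which may be technical.

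Library totals lay between 20064489 and 28984275 counts. A chi-square test comparing the 2 libraries within each group gave an unadjusted p under 0.05 for 7.31% to 7.69% of genes, more than the 5% of sampling noise. The targeted genes were still counted in their mutants: aly had 1502 and 1616 counts in the aly libraries, against 1909 and 2061 at 72h, and bam had 2014 and 2292 counts in the bam libraries. The labels do not say what the alleles change, so transcript levels do not check them. Marker lists followed the labels in part. Spermatogonia markers (4 genes found of 5) summed to 692 to 706 normalised CPM (counts scaled by library size) in bam testes and to 233 to 278 CPM in the other groups. Between bam and aly, nanos (361 and 15.9 CPM) and zpg (94.8 and 12.7 CPM) fell. The targeted gene bam (96.7 and 96.6 CPM) did not, and bgcn lay between 146 and 153 CPM in every group. Spermatocyte markers (6 genes, 1 of them at 0 in bam) summed to 4030 CPM in aly testes, and to 11.9 to 12.6, 1810 to 1820 and 1270 to 1280 CPM in bam, 48h and 72h testes. In whole testes, fewer cells of a type and less RNA per cell cannot be told apart.

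Some markers of later germ cells and of another organ moved with the Y genes. Post-meiotic spermatid markers (6 genes) summed to 149 to 152 CPM in aly, and to 3.91 to 4.85, 419 to 421 and 1560 CPM in bam, 48h and 72h testes. In aly, soti alone averaged 136 CPM and r-cup 12.5 CPM. There p-cup, c-cup, wa-cup and d-cup averaged 0.0934, 0.268, 0.922 and 1.07 CPM. The 6 accessory gland markers, secreted proteins of the male gland beside the testis, summed to 95 to 96.8 CPM in aly, and to 91.6 to 95.4, 598 to 599 and 2330 to 2360 CPM in bam, 48h and 72h testes. Of the accessory gland markers, Acp36DE alone averaged 80.6 CPM in aly and 1320 CPM at 72h. None of the 12 markers was at 0 in any group, but p-cup had 1 count over the bam libraries. Their part in the results for the Y genes was not tested. The 8 Y genes together summed to 8.34 to 8.71 CPM in aly, and to 0.516 to 0.659, 37.3 to 39.5 and 135 to 139 CPM in bam, 48h and 72h testes.

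**Figure D1:**
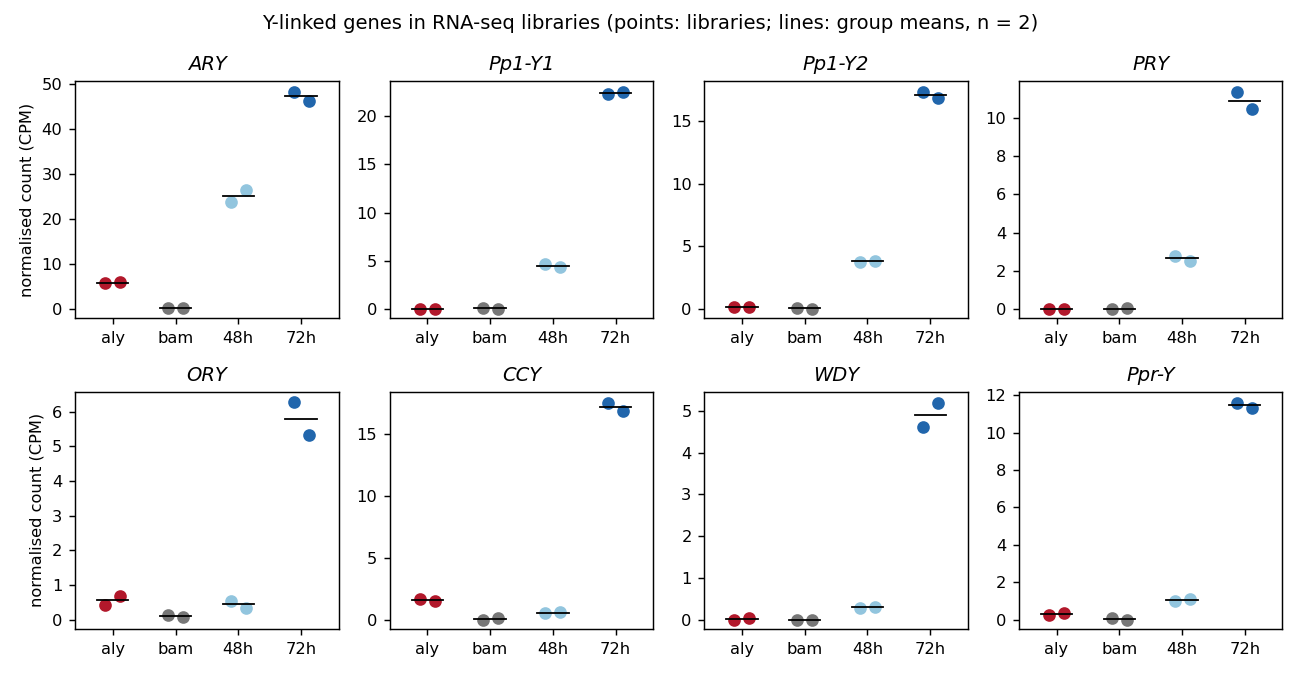
Normalised counts (CPM, linear axes that differ between panels) of the 8 Y-linked genes in each RNA-seq library, by group, with group means as lines (n = 2). All 8 genes were highest in the 72h libraries and near 0 in the bam libraries, and in aly libraries they lay at 12.5% or less of the 72h level.

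ARY was higher at 48h than in bam and higher again at 72h, where its change was the smallest of the 8 genes. It had 4 and 5 counts in the bam libraries, 687 and 847 counts at 48h and 939 and 986 counts at 72h, or 0.202 ± 0.0187, 25.1 ± 1.89 and 47.2 ± 1.46 CPM (SD, n = 2). The 48h level was 124-fold above the bam level (95% counting interval 65.3 to 272), a log2 change of 6.92 (edgeR quasi-likelihood test, adjusted p = 3.05e-26). The 72h level was 1.88-fold above the 48h level (interval 1.75 to 2.01), a log2 change of 0.91 (edgeR, adjusted p = 4.98e-15). ARY was the single gene of the 8 whose change between 48h and 72h was under 2-fold. Its log2 value ranged between 0.58 and 1.0 over the alternatives, and it was called higher in each. ARY (FBgn0058064) lies at Y:702430-704048 (build Release 6, dm6), spans 1.62 kb and has 2 transcripts in RefSeq.

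The Pp1-Y genes for protein phosphatase 1 catalytic subunits behaved much alike up to 72h. Pp1-Y1 had 3 and 0 counts in bam, 134 and 139 at 48h and 435 and 481 at 72h, or 0.0707 ± 0.0999, 4.48 ± 0.209 and 22.4 ± 0.127 CPM (SD, n = 2). Pp1-Y2 had 2 and 1 counts in bam, 109 and 124 at 48h and 337 and 360 at 72h, or 0.0686 ± 0.0362, 3.82 ± 0.0706 and 17.1 ± 0.320 CPM (SD, n = 2). Both were close to absent in bam testes. At 48h, Pp1-Y1 was 66.4-fold (interval 22.5 to 324) and Pp1-Y2 56.6-fold (interval 19.1 to 277) above bam. At 72h, Pp1-Y1 was 5.01-fold (interval 4.38 to 5.76) and Pp1-Y2 4.47-fold (interval 3.85 to 5.21) above 48h, so the intervals of the pair overlap. Pp1-Y1 (FBgn0261399) lies at Y:9833-10786 and spans 0.954 kb, and Pp1-Y2 (FBgn0046698) lies at Y:3539437-3540722 and spans 1.29 kb. By these coordinates they stand near opposite ends of the gene order, but the place of Pp1-Y1 is uncertain. Some genes at the lowest Y coordinates overlap, such as Su(Ste):CR42433 at 1-1356 and Su(Ste):CR42408 at 1-1443. Low coordinates may thus belong to separate pieces of sequence, which was not checked.

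PRY followed a similar course although its span in RefSeq is longer. It had 0 and 1 counts in bam, 81 and 80 at 48h and 221 and 223 at 72h, or 0.0215 ± 0.0304, 2.65 ± 0.215 and 10.9 ± 0.643 CPM (SD, n = 2). The 48h level was 117-fold above bam, with a wide interval of 20.8 to 4665 because bam rested on 1 count. The 72h level was 4.12-fold above 48h (interval 3.43 to 4.97), a log2 change of 2.04 (edgeR, adjusted p = 5.94e-15). PRY (FBgn0267489) lies at Y:146092-192020 and spans 45.9 kb. Among all pairs of the 8 genes, PRY and Pp1-Y2 had the most similar profiles over the 8 libraries, with a root mean square difference of 0.454 in centred log2 CPM.

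The other 4 genes, ORY, CCY, WDY and Ppr-Y, were low at 48h and differed by more than 10-fold between 72h and 48h. ORY had 3 and 2 counts in bam, 16 and 11 at 48h and 122 and 114 at 72h, or 0.114 ± 0.0391, 0.448 ± 0.148 and 5.80 ± 0.656 CPM (SD, n = 2). It was 3.94-fold higher at 48h than in bam (interval 1.5 to 13.1; edgeR, adjusted p = 0.00349) and 13.1-fold higher at 72h than at 48h (interval 8.75 to 20.2; edgeR, adjusted p = 2.54e-15). ORY (FBgn0046323) lies at Y:3561745-3618339 and spans 56.6 kb.

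CCY changed most between 48h and 72h. It had 0 and 3 counts in bam, 15 and 19 at 48h and 342 and 361 at 72h, or 0.0645 ± 0.0912, 0.555 ± 0.0524 and 17.2 ± 0.468 CPM (SD, n = 2). The 48h level was 8.26-fold above bam (interval 2.60 to 42.1; edgeR, adjusted p = 5.39e-05). The 72h level was 30.9-fold above 48h (interval 21.9 to 45.0), a log2 change of 4.94 (edgeR, adjusted p = 6.10e-23). CCY (FBgn0267592) lies at Y:3649996-3666928, 31.7 kb beyond ORY, and spans 16.9 kb.

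WDY and Ppr-Y have the longest RefSeq spans of the 8. WDY had 0 counts in both bam libraries, 8 and 10 at 48h and 90 and 111 at 72h. Its level was 0.294 ± 0.0250 CPM at 48h and 4.91 ± 0.406 CPM at 72h (SD, n = 2), and the 0 counts in bam allow up to 0.0674 CPM over the group. WDY was therefore at least 4.38-fold higher at 48h than in bam, taking 3 counts over the group as the floor, and 16.7-fold higher at 72h than at 48h (interval 10.3 to 28.7; edgeR, adjusted p = 1.05e-14). Ppr-Y had 2 and 0 counts in bam, 29 and 36 at 48h and 226 and 242 at 72h, or 0.0471 ± 0.0666, 1.06 ± 0.0851 and 11.5 ± 0.195 CPM (SD, n = 2). Ppr-Y was 23.7-fold higher at 48h than in bam (interval 6.30 to 199.8) and 10.8-fold higher at 72h than at 48h (interval 8.29 to 14.2; edgeR, adjusted p = 8.16e-19). WDY (FBgn0267449) lies at Y:2273422-2487777 and spans 214 kb, and Ppr-Y (FBgn0046697) lies at Y:1636574-1884846 and spans 248 kb. RefSeq places a pseudogene inside each of them, CR45948 in WDY and CR40441 in Ppr-Y, with 10 counts and 0 counts summed over the 72h libraries. Whether these pseudogenes share sequence or reads with WDY and Ppr-Y was not examined.

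All 8 genes were called higher at 48h than in bam at an adjusted p below 0.05 and by 2-fold or more. Of the 13495 genes tested, 44.1% were called higher in that comparison, and 30.2% by 2-fold or more. The median log2 change of the 8 was 5.78, against 0.06 over all genes tested. Between 72h and 48h all 8 were again called higher, where 45.9% of genes were called higher, and 7 of the 8 by 2-fold or more, where 28.8% were. The median of the 8 was 2.87, against 0.16 over all genes tested. That shift of all genes depended on the scaling, at -0.16 by library size alone and 0.25 with DESeq2's size factors, and the share of calls that were higher was 57.2%, 43.6% and 61.4% under the 3 scalings. Each of the 8 was called higher under all 3. With only the 2 groups compared, ORY and WDY left the filter for 48h against bam, and the other 6 were called higher. The size of the changes against bam rests on 0 to 5 counts per library there, and for 5 genes it moved by more than 1.5 times when 1 bam library was left out. At 48h against bam, the fitted log2 change was 2.28 without bam replicate 1 and 6.75 without bam replicate 2 for CCY, against 2.95 with both. In the same order of left-out libraries, PRY had 5.99 and 8.99 (6.58 with both) and Ppr-Y had 7.83 and 3.43 (4.41 with both). Pp1-Y1 had 9.89 and 4.94 (5.95 with both) and Pp1-Y2 had 6.52 and 5.27 (5.72 with both). The higher value of CCY, PRY, Ppr-Y and Pp1-Y1 comes from a bam library with 0 counts and is no measure of size. Between 72h and bam all 8 were called higher by 2-fold or more, where 46.1% of genes were called higher and 36.7% by 2-fold or more. These comparisons share libraries and are not separate evidence.

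**Figure D2:**
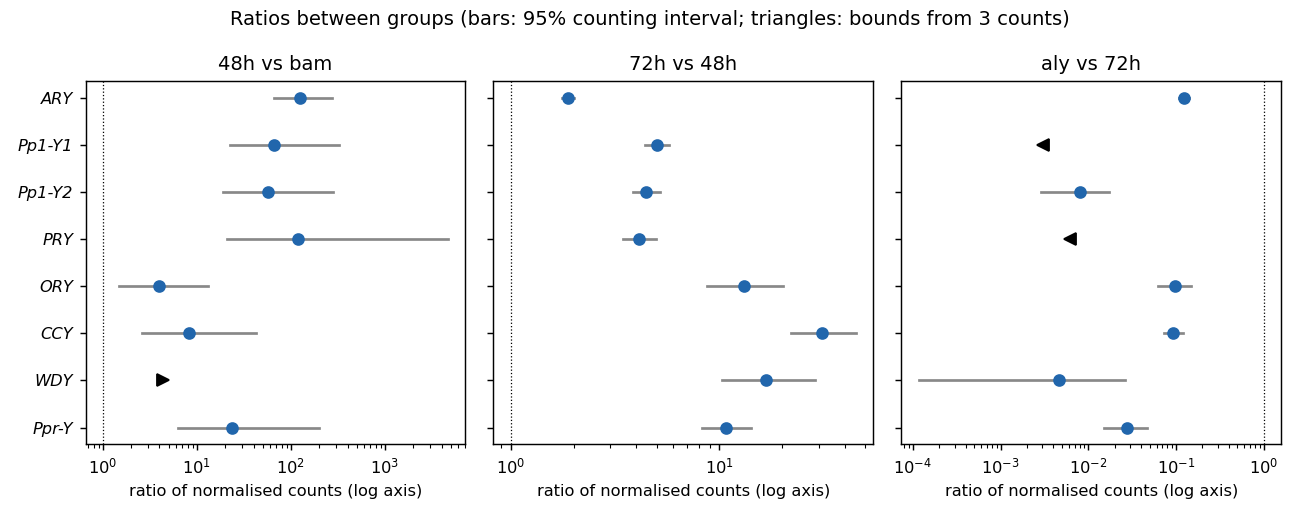
Ratios of normalised counts (log axes) for the 8 Y-linked genes in 3 comparisons, with 95% counting intervals as bars. Triangles mark ratios at a floor of 3 counts where a group had 0 counts, and are not 95% limits. At 72h against 48h the ratios ran between 1.88 for ARY and 30.9 for CCY, and in aly against 72h all 8 lay below 1.

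The span of a gene in RefSeq did not fully order the changes between 72h and 48h. The genes of under 2 kb, ARY, Pp1-Y1 and Pp1-Y2, changed by 1.88-, 5.01- and 4.47-fold, and PRY, with 45.9 kb, by 4.12-fold. ORY, CCY, WDY and Ppr-Y, with spans between 16.9 and 248 kb, changed by 10.8- to 30.9-fold, and their intervals did not overlap those of ARY, PRY and the Pp1-Y genes. The Y dynein heavy chains, motor proteins of the sperm tail with giant genes, spread over the same range. kl-2 (91.1 kb) was 35.4-fold, kl-5 (115 kb) 18.3-fold and kl-3 (227 kb) 2.57-fold higher at 72h than at 48h. So kl-3, of nearly the RefSeq span of WDY and Ppr-Y, changed less than PRY. Span here is the distance between gene ends in RefSeq, since exon lengths were not used, and levels are therefore not compared between genes. Repeats of the introns may be missing from the assembly, which was not checked. True gene length may thus differ from span, and its relation to the changes was not tested.

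**Figure D3:**
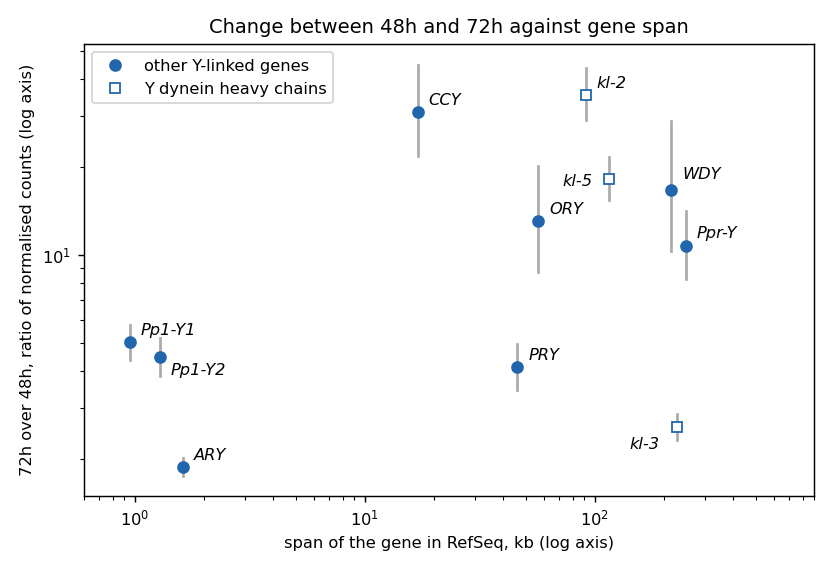
Ratio of normalised counts at 72h over 48h (log axis, bars are 95% counting intervals) against the span of each gene in kb (log axis), for the 8 genes (filled circles) and the 3 Y dynein heavy chains (open squares). Genes of short RefSeq span lie at 5.01-fold or less, and those of long RefSeq span spread between 2.57-fold (kl-3) and 35.4-fold (kl-2).

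In aly testes all 8 genes were lower than at 72h, by 2-fold or more, and they differed widely in how much remained. Of all genes tested, 45.9% were called lower in this comparison and 33.6% by 2-fold or more. The median log2 change of the 8 was -6.03, against -0.07 over all genes tested. Between 9.36% and 12.5% of the 72h level was left for 3 genes, and 2.77% or less for the other 5.

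ARY, ORY and CCY kept the most. ARY had 122 and 137 counts in aly libraries, against 939 and 986 at 72h, which left 5.88 ± 0.0421 CPM in aly testes (SD, n = 2), 12.5% of the 72h level. It was 8.02-fold lower in aly testes (interval 7.04 to 9.17), a log2 change of -3.0 (edgeR, adjusted p = 2.53e-25). ORY had 9 and 16 counts in aly libraries, against 122 and 114 at 72h, or 9.82% of the 72h level (edgeR, adjusted p = 6.33e-14). CCY had 35 and 36 counts in aly libraries, against 342 and 361 at 72h, or 9.36% of the 72h level (edgeR, adjusted p = 2.78e-20). The ORY and CCY fold differences, 10.2-fold (interval 6.73 to 16.1) and 10.7-fold (interval 8.36 to 13.8) lower in aly, overlap.

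Ppr-Y, Pp1-Y2, WDY, PRY and Pp1-Y1 kept less. Ppr-Y had 5 and 9 counts in aly libraries, against 226 and 242 at 72h, or 2.77% of the 72h level. Pp1-Y2 had 3 and 3 counts in aly libraries, against 337 and 360 at 72h, or 0.798%. WDY had 0 and 1 counts in aly libraries, against 90 and 111 at 72h, or 0.461%, with a counting interval of the fold difference of 38.5 to 8609. Its log2 change of -7.46 was -6.66 without aly replicate 1, the library with 0 counts, and then rested on the 1 count of aly replicate 2.

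PRY and Pp1-Y1 were not counted at all in aly testes. PRY had 0 counts in both aly libraries, against 221 and 223 at 72h, and was at least 159.7-fold lower in aly testes. Pp1-Y1 had 0 counts in both aly libraries, against 435 and 481 at 72h, and was at least 267.4-fold lower by the same limit. The 0 counts allow up to 0.0681 CPM over the aly group. Pp1-Y1 and Pp1-Y2, alike up to 72h, were both at or near 0 in aly testes, but 6 counts were found for Pp1-Y2.

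The dynein heavy chain kl-5 behaved differently from PRY and Pp1-Y1. By RefSeq coordinates kl-5 lies between them, 8.60 kb from PRY and 11.5 kb from Pp1-Y1, but the place of Pp1-Y1 is uncertain. kl-5 had 1210 and 1297 counts in aly libraries, against 909 and 972 at 72h. It was 1.235-fold higher in aly testes (interval 1.16 to 1.31), a log2 change of 0.30 (edgeR, adjusted p = 2.77e-06), and was called higher. PRY and Pp1-Y1 had 0 counts there. kl-3 kept 23.5% and kl-2 0.829% of the 72h level in aly testes. Near the other end of the assembly, Pp1-Y2 with 0.798% lies 21.0 kb from ORY with 9.82%.

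**Figure D4:**
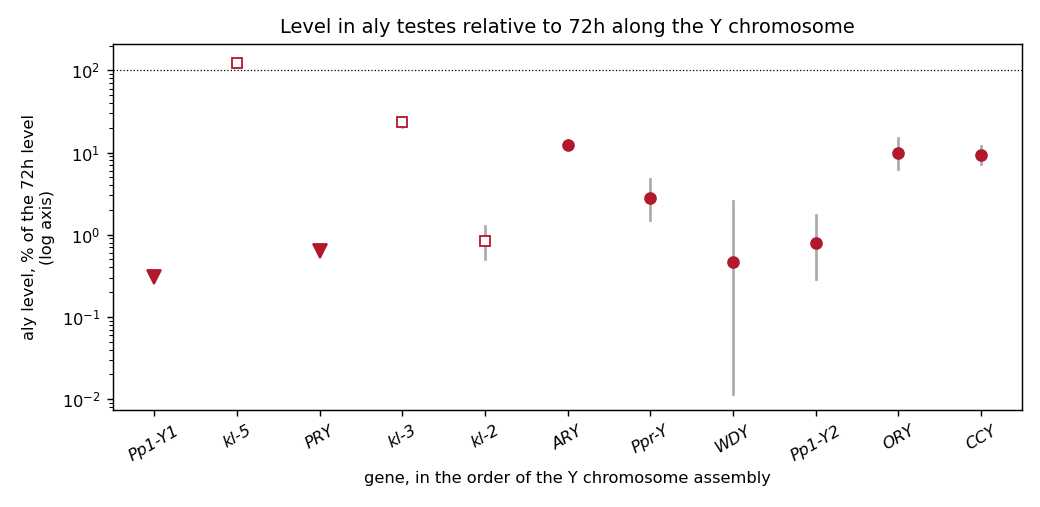
Level in aly testes as a percentage of the 72h level (log axis, bars are 95% counting intervals) for the 8 genes (filled) and the 3 Y dynein heavy chains (open squares). Genes are in order of RefSeq coordinate, where the place of Pp1-Y1 is uncertain. Downward triangles mark the level at a floor of 3 counts for PRY and Pp1-Y1, which had 0 counts in aly, and are not 95% limits. kl-5 lies above the 100% line between those triangles.

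Against the 48h group, aly testes gave a mixed picture. CCY was called higher in aly testes, with 35 and 36 counts in aly libraries and 15 and 19 at 48h, a 2.89-fold difference (interval 1.90 to 4.49; edgeR, adjusted p = 1.12e-05), where 39.8% of genes were called higher. A further 6 genes were called lower, where 42.8% of genes were. ARY stood at 23.4%, Ppr-Y at 29.8%, WDY at 7.69% (1 count in aly) and Pp1-Y2 at 3.57% of the 48h level, while PRY was at least 38.8-fold and Pp1-Y1 at least 65.7-fold lower in aly testes. ORY was not called: its 9 and 16 counts in aly libraries overlapped the 16 and 11 counts at 48h (1.28-fold, interval 0.714 to 2.30; edgeR, adjusted p = 0.412). The sign of the ORY difference turned without 48h replicate 2 (log2 -0.15) and without aly replicate 2 (log2 -0.04), against 0.35 with all libraries.

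Against bam, 4 of the 8 genes were called higher in aly testes, where 41.7% of genes were. ARY was 29.1-fold (interval 15.1 to 64.3), CCY 23.9-fold (interval 7.85 to 118.6), Ppr-Y 7.07-fold (interval 1.62 to 64.1) and ORY 5.05-fold (interval 1.90 to 16.9) higher in aly than in bam. The adjusted p values in edgeR were 3.07e-17 for ARY, 8.11e-10 for CCY, 0.00318 for Ppr-Y and 0.00077 for ORY. Without bam replicate 2 the log2 change of Ppr-Y was 1.69, against 2.69 with both, and its call was lost (adjusted p = 0.0806). Without bam replicate 1 the log2 change of CCY was 3.61, against 4.48. With only these 2 groups compared, ORY and Ppr-Y left the filter and 2 genes were called. PRY, WDY and Pp1-Y1 had between 0 and 3 counts over either group, too few for a fold, and Pp1-Y2 had 6 counts in aly and 3 in bam and was not called (adjusted p = 0.336).

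The order of the groups by level therefore took 3 main forms. ARY, Ppr-Y and Pp1-Y2 were ordered 72h, 48h, aly and bam, with the aly and bam levels of Pp1-Y2 not told apart. PRY, WDY and Pp1-Y1 were ordered 72h and 48h, with aly and bam at 3 counts or fewer over a group. For ORY and CCY the aly level was second after 72h, with the ORY level in aly not told apart from that at 48h.

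Genes with the most similar profiles were looked for among all genes tested, by the root mean square difference of centred log2 CPM over the 8 libraries. The nearest to the median profile of the 8 were lncRNA:CR43682 (0.215), the neurotransmitter transporter-like gene Ntl (0.272), lncRNA:CR45593 (0.289), CG17118 (0.291) and lncRNA:CR42844 (0.294), none of them on the Y chromosome. Ntl averaged 3.46 CPM in aly testes, and 1.44, 21.2 and 157 CPM in bam, 48h and 72h testes. For single genes, the nearest to ARY was CG6790 (0.125), to Pp1-Y2 lncRNA:CR45286 (0.117), to Pp1-Y1 the gamma-tubulin ring complex gene t-Grip84 (0.211) and to PRY asRNA:CR44304 (0.168). CCY was nearest to the tubulin tyrosine ligase-like gene TTLL6A (0.356), ORY to lncRNA:CR45228 (0.252), WDY to lncRNA:CR45598 (0.147) and Ppr-Y to CG42752 (0.200). Low genes resemble each other more easily on this scale, since a prior count of 2 damps their changes.

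Relatives of the enzymes and channels that lie outside the Y chromosome were counted in the same way. Of all genes tested, 44.1% were called higher and 41.8% lower at 48h against bam. In aly against 72h, 42.2% were called higher and 45.9% lower, 33.6% lower by 2-fold or more. Of 8 protein phosphatase 1 relatives, 5 rose and 3 fell at 48h against bam, and 2 were higher and 6 lower in aly than at 72h. PpD5, PpD6, PpN58A and PpY-55A were the 4 lower in aly by 2-fold or more, while Pp1-13C was called lower at 1.04-fold. PpY-55A averaged 0 CPM in aly testes, and 0.0901, 2.5 and 30.0 CPM in bam, 48h and 72h testes, and PpD5 0.137 CPM in aly, and 0.0236, 11.3 and 103 CPM in bam, 48h and 72h testes. Pp1-87B went the other way, at 282 CPM in aly testes, and 915, 396 and 186 CPM in bam, 48h and 72h testes.

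All 4 polycystin relatives rose at 48h against bam, where 44.1% of all genes were called higher. All 4 were lower in aly than at 72h, where 45.9% of all genes were, and 3 of them by 2-fold or more, where 33.6% were. Pkd2, the channel of the sperm tail, was the exception to the larger falls, at 381 CPM in aly testes, and 0.309, 445 and 636 CPM in bam, 48h and 72h testes. brv2 stood at 0.134 CPM in aly testes, and 0.0430, 13.7 and 54.6 CPM in bam, 48h and 72h testes.

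Beside the shares of all genes given above, 3 of 7 aldo-keto reductase relatives of ARY rose and 4 fell at 48h against bam. In aly against 72h, 2 of the 7 were higher, 3 lower and 2 not called. CG6083 alone among them changed by more than 10-fold in both comparisons, at 6.35 CPM in aly testes, and 0.0901, 47.3 and 173 CPM in bam, 48h and 72h testes.

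The 5 genes whose products act on Y-loop transcripts or are known from Y-loop work (blanks, heph, maca, pont and rept) all rose at 48h against bam. Of all genes tested, 44.1% were called higher there. By 2-fold or more, 3 of the 5 rose, where 30.2% of all genes did. In aly against 72h, 4 of the 5 were called higher, where 42.2% of all genes tested were, and maca lower, by 1.33-fold. The differences of heph (1.21-fold), rept (1.14-fold) and pont (1.53-fold) were small, and blanks alone passed 2-fold, where 22.1% of all genes were called higher. maca averaged 239 CPM in aly testes, and 0.528, 148 and 317 CPM in bam, 48h and 72h testes. blanks, a double-stranded RNA-binding protein of spermatocyte nuclei, averaged 1730 CPM in aly testes, and 423, 1150 and 780 CPM in bam, 48h and 72h testes.

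Among the other Y genes, the Mst77Y cluster, copies of the sperm protein gene Mst77F, had 6 tested genes of 18. All 6 were called lower in aly than at 72h, where 45.9% of all genes tested were called lower and 42.2% higher. Of 5 tested Su(Ste) transcripts, 4 were lower and 1 higher. These copies are nearly identical, so their counts are uncertain. FDY, a Y gene copied from an autosomal one, went against the pattern, with 4892 counts over the aly libraries, and 4097, 6606 and 2602 counts over the bam, 48h and 72h libraries. Reads shared with the autosomal gene were not checked, so the FDY counts are uncertain too. CG40635 was also higher in aly, with 136 counts over the aly libraries and 24 over the 72h libraries.

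Listed peaks of open chromatin at the 8 genes were sparse. A peak was counted when it overlapped the gene or 2000 bases on either side. The aly and topi lists held 6 and 1 peaks at the 8 genes, and the bam, heat shock control, 48h and 72h lists 2, 2, 6 and 3. These are 1 list per condition with no replicate, so differences between them have no replicate check. On the whole Y chromosome the lists held 40 to 60 peaks, between 0.129% and 0.193% of all peaks. At most 3 of the 8 genes had a peak in a list, while 79.0% to 86.6% of the 17807 genes placed in the annotation had one. Peaks were sparse on the rest of the Y chromosome too, with 7 to 16 of the 115 other Y genes having one in a list. WDY, ARY, Pp1-Y1 and Pp1-Y2 had none in any list, for Pp1-Y1 at coordinates whose place is uncertain. ARY thus had 1925 counts over the 72h libraries and no peak in the 72h list. No allowance was made here for the single copy of the Y chromosome or for its repeats. A missing peak therefore need not mean closed chromatin.

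Ppr-Y had the single peak found in all 6 lists, at Y:1642363-1642579, about 5.89 kb inside the lower end of the gene. Its fold enrichment, the authors' value per peak, was 2.39 in aly and 2.34 in topi, and 6.98, 6.59, 5.49 and 4.37 in bam, the heat shock control, 48h and 72h. Values from separate lists are not comparable as levels, since each list has its own depth and background. The aly and topi peaks had a -log10 q of 6.37 and 9.96, and at 10 or more this peak stays in the other 4 lists. The peak was thus present in bam, where Ppr-Y had 2 counts, and in aly, where it had 14.

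ORY had the most peaks. One at its lower end (Y:3561600-3561798) was listed in aly, 48h and 72h and not in topi, bam or the heat shock control, and at a -log10 q of 10 or more in the 72h list alone. One inside the gene (Y:3606629-3606764), with a fold enrichment of 3.50 to 4.44, was listed in bam, the heat shock control, 48h and 72h and not in aly or topi. A different internal peak (Y:3604336-3604492) was listed in aly alone. A pair beyond the upper end (Y:3618780-3618922 and Y:3619038-3619223), 440 and 698 bases outside the gene in aly, was listed in aly and 48h. The annotation used gives no strand, so which end is the start of the gene is not stated here, and introns and exons are not given.

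**Figure D5:**
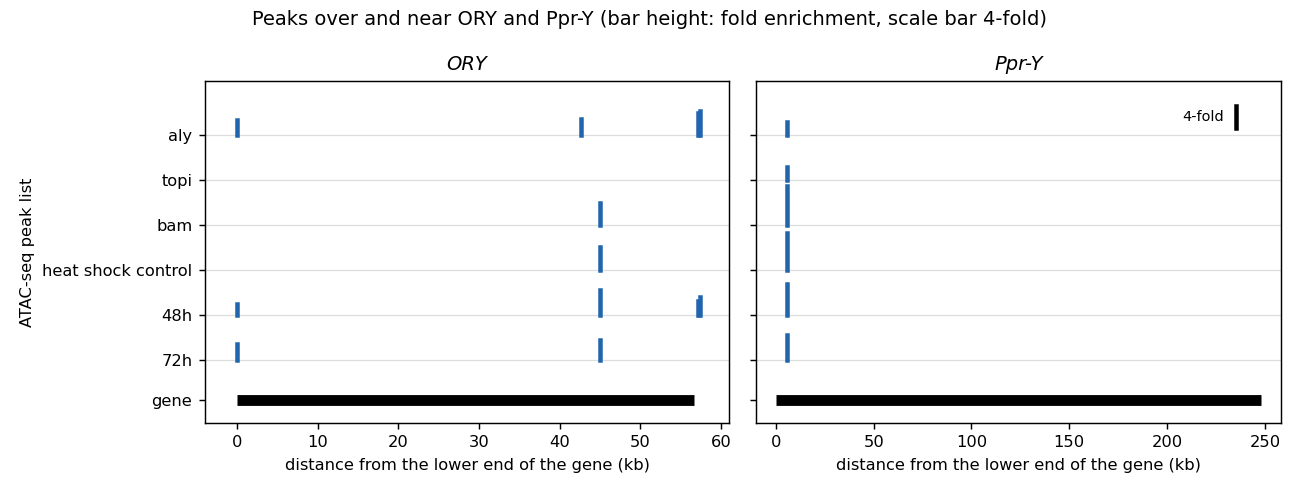
Positions of ATAC-seq peaks over and near ORY and Ppr-Y in the 6 peak lists, as distance in kb from the lower end of each gene (black bar); bar height is the authors' fold enrichment. Ppr-Y has 1 peak at 5.89 kb in all 6 lists, and the ORY peak near 45.0 kb is missing from the aly and topi lists.

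CCY had 1 peak, 50 bases beyond its upper end (Y:3666979-3667219), in the aly list alone, with a fold enrichment of 3.61. PRY had 1 peak inside the gene (Y:170600-170716) in the 48h list alone, with a fold enrichment of 1.94. CCY was thus listed with a peak in aly testes, where it had 71 counts, and with none at 72h, where it had 703. In the nucleosome maps, which list positions with an occupancy between 0 and 1, ORY held 9 positions in aly and 0 in topi, and 1, 2, 7 and 2 in bam, the heat shock control, 48h and 72h. Ppr-Y held 2 in aly and 2 in topi, and 2, 2, 3 and 3 in bam, the heat shock control, 48h and 72h. PRY had 2 positions in each of the 48h and 72h maps, WDY 3 in the 48h map and CCY 1 in the aly map. No position was listed at the RefSeq coordinates of ARY, Pp1-Y1 or Pp1-Y2, those of Pp1-Y1 being of uncertain place.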

How the data were processed

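RNA-seq was made from rRNA-depleted total RNA with a stranded kit, per the labels' protocols. The deposited values are raw counts per FlyBase identifier; which tool counted them, on which strand and annotation, was not given in the sources. Programs named, per the submitters' processing notes and with no roles, are MACS2 2.1.1, bedtools 2.25.0, BWA 0.7.10, STAR 2.5.4b and 2.5.1b, deepTools 2.5.4 and Trim Galore 0.4.1, and the build is dm6. The deposited peak lists hold the authors' fold enrichment ratio and −log10 q per peak, 1 list per condition, which for aly and topi had technical replicates among its libraries; how these were combined was not given. The deposited nucleosome maps hold an occupancy fraction between 0 and 1. The deposited CAGE counts are per cluster without coordinates or gene names, so they were not matched to the Y genes and served only to estimate a spread between libraries.

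Symbols, positions and spans came from RefSeq (Release 6 assembly, the build dm6). edgeR 4.0.16 in R 4.3.3 was run on all 8 RNA-seq libraries with filterByExpr by group (minimum count 10), TMM normalisation and its quasi-likelihood test, with Benjamini-Hochberg adjustment over 13495 genes. Calls were made at an adjusted p below 0.05, and changes of 2-fold or more were counted beside them. The code was tested on simulated data. Ratios are of normalised counts, with 95% exact counting intervals, which like the floor of 3 counts over a group cover counting error only. With 0 counts in a group the text gives the 95% exact limit and the figures the value at that floor. With 3 counts or fewer in both groups no fold was given. The spread between RNA-seq libraries of a group beyond counting noise was small, so adjusted p values are very small. edgeR's common value over all genes, as a coefficient of variation, was 2.11%, against 17.3% for CAGE. Genes with few counts vary by more than this between libraries.

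Alternatives were DESeq2 1.42.0 with its size factors, library size alone, no filter, a replicate block, the CAGE spread, only the 2 groups compared, each library left out, and for peaks other windows, overlaps and a stricter q. The members and gene lists were chosen with earlier results of these data known. All 8 genes were named, with relatives counted in the text, the 5 genes nearest to the median profile and the nearest gene to each. FDY, brv2, Pkd2, PpD5, PpY-55A, Pp1-87B, CG6083, maca, heph, rept, pont and blanks were singled out after their values were seen. Markers vas and wupA were not matched and not used.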

Additional observations from a re-analysis of the deposited data

How the results depend on the processing

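The 45 log2 changes of the 8 genes that had enough counts were recomputed under up to 14 settings each, giving 624 values. Of these, 621 kept their direction and their side of the threshold, 1 lost its call and 2 changed sign. The sign changes were both ORY in aly against 48h, at -0.15 without 48h replicate 2 and -0.04 without aly replicate 2, in a range of -0.15 to 0.52 when each library was left out. The lost call was Ppr-Y in aly against bam, at 1.69 without bam replicate 2. The number of genes called higher in aly than in bam was 2 in place of 4 with only the 2 groups compared, where genes with few counts leave the filter; the same setting gave 6 in place of 8 higher at 48h against bam and 5 in place of 6 lower in aly against 48h. Without bam replicate 2 that number was 3, and 1 gene was called lower in place of 0, Pp1-Y1, with 3 counts in the remaining bam library and 0 in aly. Leaving out each library gave 8 called genes throughout for 48h against bam, 72h against 48h, 72h against bam and aly against 72h.

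With the CAGE spread, the genes called higher in aly than at 48h were 3330 of all genes, in place of 5365. Counting peaks over the gene body alone left 3 in 48h and 3 in aly, in place of 6 each, and at a -log10 q of 10 or more topi had 0 in place of 1, and aly and 48h 4 each in place of 6. Planned CAGE comparisons were not run, because clusters could not be matched to genes.

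A fit with the replicate block changed no call of the 8 genes: it called 8 higher for 48h against bam, 8 higher for 72h against 48h, 8 lower for aly against 72h and 4 higher for aly against bam. Deviations of same-numbered libraries correlated by 0.030 to 0.096, so the numbers were not taken to pair the libraries. Sizes against bam moved with the bam library left out, at 48h by a log2 value of 4.94 to 9.89 for Pp1-Y1, 3.43 to 7.83 for Ppr-Y and 2.28 to 6.75 for CCY. Genes with a few counts in a group, such as WDY in bam and aly, are limited by depth, with 3 counts equal to 0.0935 to 0.154 CPM in a library.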
